A study of Mus musculus with 4 samples.

Results

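Growth hormone reaches the liver in pulses from the pituitary and binds the receptor Ghr, which activates the kinase Jak2. Jak2 then phosphorylates the transcription factors Stat5a and Stat5b, which enter the nucleus and switch on target genes, among them the feedback inhibitors Socs2 and Cish and the circulating growth factor Igf1 with its carrier Igfals. The pulses differ between the sexes, and in rodents this timing sets a large programme of sex-biased liver genes, in which the repressor Bcl6 belongs to the male side and the factor Cux2 to the female side. These 10 genes were described here in mouse liver. They were found on the array by gene name among the spots that are not controls, which gave 24 probes of 10 genes out of 56495 probes of 37021 named genes or transcripts.

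The livers came from C57BL/6 wild-type mice, 6 weeks old per the labels, injected intraperitoneally on 5 days a week for 3 weeks with aristolochic acid type I (AAI), a plant compound that damages the kidney, or with corn oil, its vehicle. Females received AAI at 5 mg/kg/day and males at 2 mg/kg/day, so sex and dose cannot be told apart in any comparison of the treated sexes. The liver RNA of 5 mice of a group was mixed in equal parts and hybridized to 1 one-colour array. The 4 arrays are named here corn oil females, AAI females, corn oil males and AAI males. With 1 array per group there is no replicate and no test, and the spread between animals is unknown. Each value below is a normalized log2 signal, each ratio is a difference of 2 such values, and a difference of 1 is a 2-fold difference. The scanner's own error estimate came to 0.20 on a log2 ratio of nearly every gene described and was nearly constant among bright probes. Probes of the same gene gave ratios with a median SD of 0.23 to 0.25. Repeated spots of a probe on 1 array had a median SD of 0.05 to 0.08. All of these errors cover the measurement only.

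On each array 75.8% to 82.3% of the spots were well above background, and none was saturated. The Y-linked genes Ddx3y and Eif2s3y were well above background on both male arrays and on neither female array, whereas the brightest probes of Kdm5d, Uty and Xist were above background on all 4. The 9 hepatocyte markers on the array, such as Alb and Ttr, were above background on all 4 arrays and none differed 2-fold between AAI and corn oil in either sex. Between the sexes, 2 of the 9 were at least 2-fold lower in males under corn oil (Ass1 -1.35, Hpd -1.28), beside 1.84% of all genes. Under AAI 1 was lower (Ass1 -1.05), beside 1.08%. Markers of other tissues were not even between the pools either. The summed signal of 10 skeletal muscle genes was 1144 in corn oil females, 48870 in AAI females, 5554 in corn oil males and 380035 in AAI males, and all 10 were at least 2-fold higher with AAI in each sex. The summed signal of 7 adrenal cortex genes was 28855 in AAI males and 3401 to 4416 on the other 3 arrays, and that of 7 adrenal medulla genes was 18719 against 2913 to 3805. With AAI in males, 5 of the 7 cortex genes were at least 2-fold higher and 1, Mc2r, was lower (-2.07). Of the 7 medulla genes 5 were higher and 0 lower in males. In females 0 genes of either list differed 2-fold. Fat markers had a summed signal of 88488 in AAI males and of 4811 to 8193 on the other arrays. Of these 8 fat markers 6 were at least 2-fold higher with AAI in males and 3 in females, and 4 were at least 2-fold higher in corn oil males than in corn oil females. Of 7 macrophage markers, 5 were at least 2-fold lower with AAI in females and 1 in males, with summed signals of 47922, 29409, 40565 and 28343 in the order of arrays above. Over all genes with AAI, 1.35% were at least 2-fold higher and 3.08% lower in females, and 3.48% and 4.52% in males. In corn oil males over corn oil females, 3.81% of all genes were at least 2-fold higher. Stellate cell, endothelial and bile duct markers had summed signals of 3564 to 5350, 32678 to 44033 and 793 to 944. The part of these differences in the results below was not tested, and in pooled tissue fewer cells of a type and less RNA per cell cannot be told apart. With each array scaled to its 75th percentile instead, the share of lower genes among all genes that differed at least 2-fold was 54.6% rather than 69.6% for AAI in females and 36.2% rather than 25.2% for males over females under AAI.

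**Figure D1:**
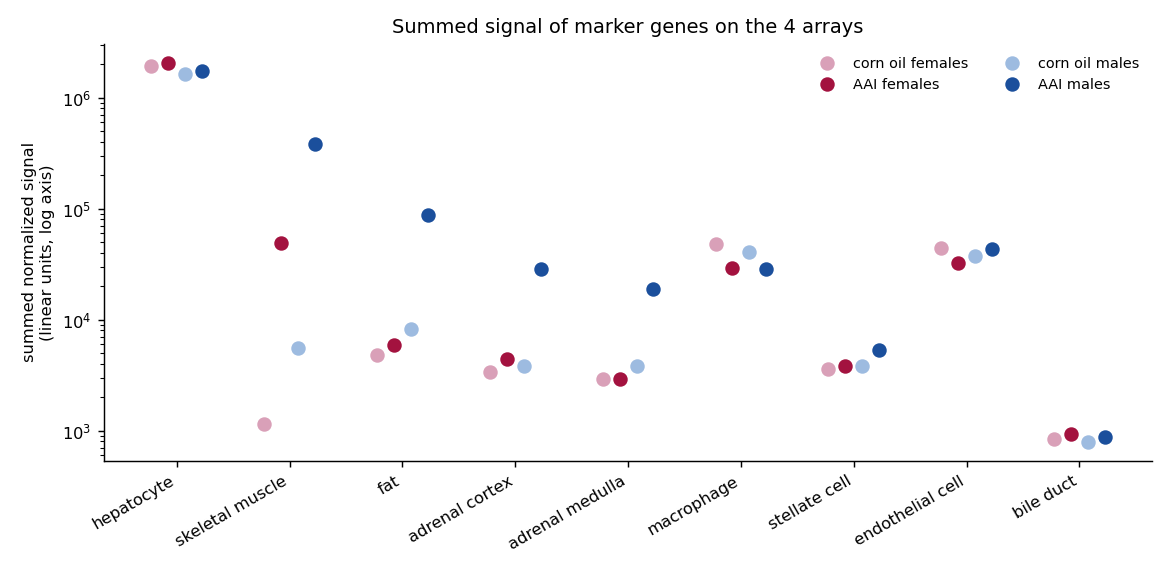
Summed normalized signal (linear units on a log axis) of the marker genes of 9 cell types or tissues, 1 point per array. Hepatocyte markers sit close together, while muscle markers reach 48870 in AAI females and 380035 in AAI males, and adrenal and fat markers are high in AAI males.

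STAT5 binds DNA at the letters TTCNNNGAA, a palindrome that reads the same on both strands. In RefSeq's table of mouse promoters (GRCm38.p6; 250 bases before to 50 bases after each start), 9 of the 10 genes had an entry, with 16 starts, and 3 genes, Cish, Igfals and Bcl6, held the letters at 5 starts. Among all 32851 promoters listed there, 8.30% held them, 0.457% held at least 2 matches and 0.033% at least 3. The 5 stretches are shown because they carry every match among these genes. Capitals mark the matches, each stretch reads 5′ to 3′ on the strand of its gene, and positions count from the start as 1, with negative numbers before it.
Cish, chr9:107296653-107296682, plus strand, matches starting at positions 1 and 12: ccagttTTCCTGGAAagTTCTTGGAAatct
Igfals, first start, chr17:24877599-24877638, plus strand, match at -236: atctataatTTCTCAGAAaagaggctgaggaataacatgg
Igfals, second start, chr17:24878156-24878205, plus strand, match at -58: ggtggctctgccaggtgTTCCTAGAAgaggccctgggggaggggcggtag
Bcl6, first start, chr16:23988938-23988992, minus strand, match at -118: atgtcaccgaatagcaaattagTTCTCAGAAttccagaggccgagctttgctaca
Bcl6, second start, chr16:23981349-23981463, minus strand, matches at -168, -122 and -88: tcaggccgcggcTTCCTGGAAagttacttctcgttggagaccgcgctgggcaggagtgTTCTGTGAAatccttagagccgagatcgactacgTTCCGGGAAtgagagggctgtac
Cish held 2 of these matches 2 bases apart, and the second start of Bcl6 held 3. The windows of Ghr, Jak2, Stat5a, Stat5b, Igf1 and Cux2 held no such letters, and Socs2 had no entry. A match is a string of letters in a window and not a measured binding site.

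In females, AAI went with lower signals of Socs2, Bcl6, Cish, Ghr, Igfals and Cux2, while Jak2, Stat5a, Stat5b and Igf1 differed by less than the scanner error. Of the 10 genes, 1 (Socs2) was at least 2-fold lower and 0 were at least 2-fold higher, beside 3.08% and 1.35% of the 31662 genes above background on at least 1 female array. The median log2 ratio of the 10 genes was -0.45 and that of all genes was 0.04. In males, the signal of Cux2 was 9.52-fold higher with AAI, and Socs2, Bcl6 and Ghr were lower. Stat5b, Igfals and Igf1 were lower by 0.27 to 0.30 and Cish was higher by 0.30, also beyond the scanner error. Jak2 and Stat5a differed by less than that error in males. There 1 of the 10 genes (Cux2) was at least 2-fold higher and 0 were at least 2-fold lower, beside 3.48% and 4.52% of 30495 genes. These counts rest on the brightest probe of each gene. In females another probe passed 2-fold, as a bound, for Bcl6 (-1.121). In males other probes passed 2-fold for Ghr (-1.12), for Igf1 (1.36) and, as a bound, for Bcl6 (-1.035), as did the other Cux2 probes. The median log2 ratio of the 10 genes was -0.28 in males and that of all genes was 0.02. Each female ratio and each male ratio of AAI to corn oil comes from its own pair of arrays, but the comparisons between the sexes use the same 4 arrays again.

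**Figure D2:**
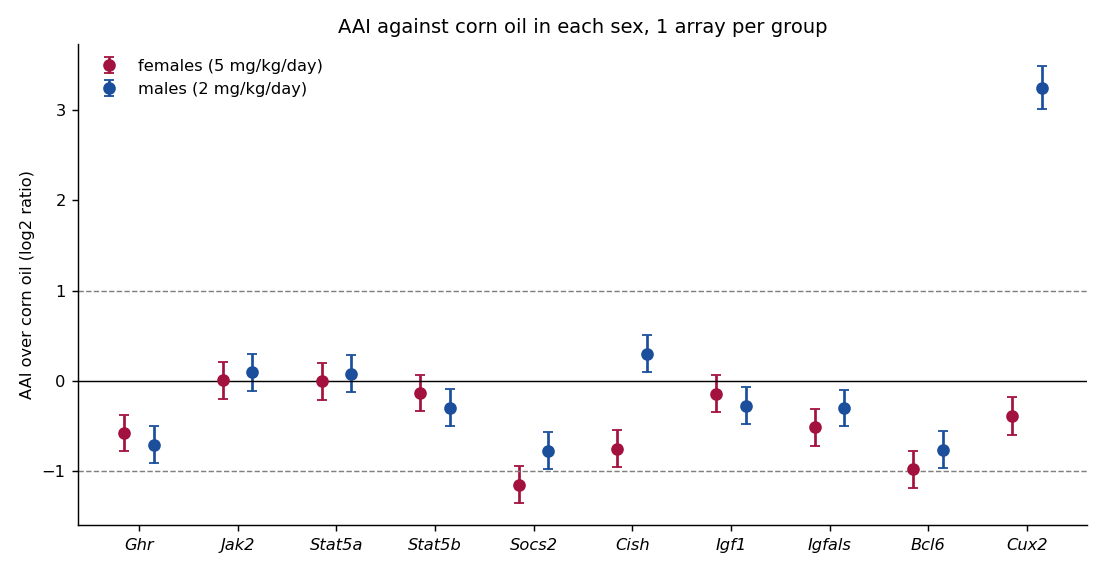
Log2 ratio of AAI over corn oil for the 10 genes in females and in males, each from 1 pair of arrays; bars are the scanner's error estimate for the ratio and dashed lines mark 2-fold. Socs2 in females lies below -1 and Cux2 in males lies at 3.25, while the other ratios lie between the dashed lines.

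Ghr is the entry point of the pathway. Its brightest probe (NM_001048178, transcript variant 2; mm9 chr15:3277543-3277602) read 14.15 in corn oil females, 13.57 in AAI females, 14.34 in corn oil males and 13.63 in AAI males. Both AAI values lay below both corn oil values, with log2 ratios of -0.58 in females and -0.70 in males, and within a treatment the sexes lay within the scanner error of each other. The probe of transcript variant 1 (NM_010284) read 12.93, 12.60, 13.58 and 12.46 in the same order, with ratios of -0.33 and -1.12. It was thus 2.17-fold lower with AAI in males, and its corn oil males lay 0.65 above corn oil females. A probe that crosses an intron of the gene, and so reads spliced RNA, gave -0.33 and -0.53. These 3 probes put Ghr lower with AAI in both sexes, and in males the amounts spread by more than the scanner error. A weaker probe of a further transcript (ENSMUST00000162993) read 7.62, 8.39, 8.41 and 7.59, which is higher with AAI in females (0.78) and lower in males (-0.81). Because of it, the mean of the probes of Ghr gave -0.12 in females in place of -0.58. Which of these transcripts encodes the signalling receptor was not examined, so the brightest probe need not stand for it.

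Jak2 is the kinase bound to the receptor. Its brightest probe (NM_008413; mm9 chr19:29386381-29386440) read 8.24, 8.26, 8.45 and 8.54 in corn oil females, AAI females, corn oil males and AAI males. The log2 ratios of AAI to corn oil, 0.01 and 0.09, were within the scanner error, and its other probe was not well above background on any array. Stat5a, of the pair of transcription factors that Jak2 activates, was nearly level, at 13.93, 13.93, 14.05 and 14.14 (NM_011488; mm9 chr11:100745240-100745299), with ratios of 0.00 and 0.08. Its second probe gave 0.24 and 0.02. Stat5b, the more important of the pair for male-biased liver genes, read 11.15, 11.02, 10.89 and 10.59 (NM_011489; mm9 chr11:100642045-100642104). Its level was lowest in AAI males, with ratios of -0.13 in females and -0.29 in males and a difference of -0.42 between AAI males and females. The second Stat5b probe (AK137889) gave 0.39 in females, the opposite sign, and -0.27 in males. None of these 3 genes differed 2-fold between any of the arrays compared. RNA levels say nothing of the phosphorylation through which Jak2 and STAT5 act, which was not measured.

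Socs2, the target that restrains growth hormone signalling at its receptor, had the lowest ratio of AAI to corn oil in females among the 10. Its brightest probe (NM_007706; mm9 chr10:94875066-94875125) read 11.15 in corn oil females, 10.002 in AAI females, 11.62 in corn oil males and 10.85 in AAI males. The AAI value was 2.21-fold lower in females and 1.71-fold lower in males (log2 ratios -1.15 and -0.77), and within each treatment the males lay above the females. A second probe of the same transcript read 9.97, 9.05, 10.42 and 9.72, in the same order of arrays, with ratios of -0.92 and -0.70. A dimmer probe gave -0.48 and -0.68, and the last was not well above background on any array. With the mean of its probes the female ratio was -0.85, short of 2-fold. Socs2 had the 511th lowest ratio among the 29698 genes above background on both female arrays.

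Cish, the other inhibitor of the same family and a gene that STAT5 switches on quickly, did not go with Socs2 in males. Its single probe (NM_009895; mm9 chr9:107204196-107204255) read 10.11 in corn oil females, 9.37 in AAI females, 10.57 in corn oil males and 10.88 in AAI males. With AAI it was thus 1.68-fold lower in females and 1.23-fold higher in males, log2 ratios of -0.75 and 0.30. The lowest and the highest of the 4 values were those of the treated females and the treated males, 2.85-fold apart (log2 1.51), while the corn oil pools differed by 0.46. The 2 ratios differ by 1.05, with a scanner error of 0.29 on that difference. Of 28189 genes above background on all 4 arrays, 10.1% had a difference of at least 1 in size.

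Igf1, the growth factor that the liver releases under growth hormone, differed little. Its brightest probe (NM_010512; mm9 chr10:87393516-87393575) read 16.19 in corn oil females, 16.05 in AAI females, 16.48 in corn oil males and 16.21 in AAI males. The log2 ratios with AAI were -0.14 and -0.27, and the male value was 0.01 under scaling to the 75th percentile and 0.33 with the mean of its probes, so that no direction held. The probe of NM_184052 gave 0.35 and -0.12. A weak probe of another transcript (AK050118; mm9 chr10:87325382-87325441) read 7.87, 8.001, 7.44 and 8.80, higher in AAI males than on the other arrays and 1.36 above corn oil males. Igfals, the subunit that keeps Igf1 in the circulation, read 10.10, 9.59, 9.86 and 9.56 (NM_008340; mm9 chr17:25018251-25018310). Both AAI values lay below both corn oil values, by 0.51 in females and 0.30 in males. Igfbp3, the binding protein that forms the complex with Igf1 and Igfals, read 11.90, 11.98, 11.65 and 12.17, with ratios of 0.08 and 0.52. Igf1r, the receptor of Igf1, read 8.31, 8.82, 8.56 and 8.58, with ratios of 0.51 and 0.02.

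**Figure D3:**
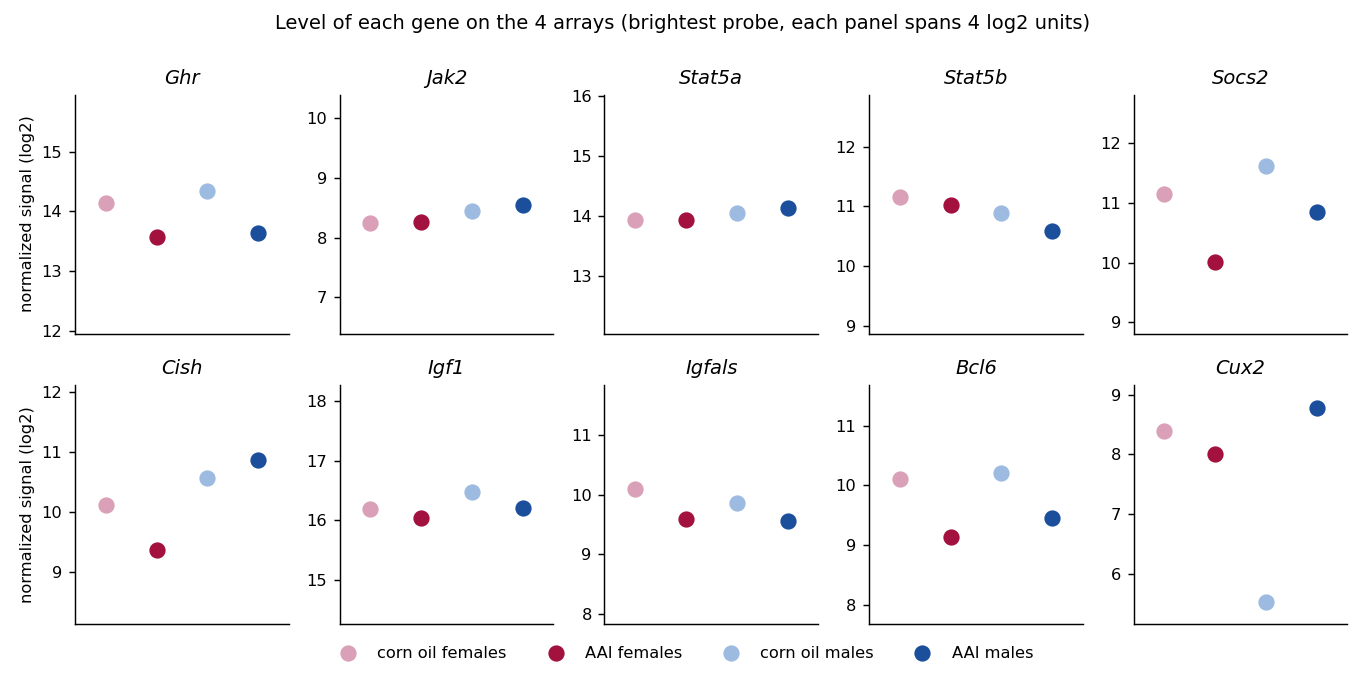
Normalized log2 signal of the brightest probe of each of the 10 genes on the 4 arrays, 1 point per array, each panel spanning 4 log2 units. The AAI points of Ghr, Socs2, Igfals and Bcl6 lie below the corn oil points of the same sex, and Cux2 is low in corn oil males only.

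Bcl6 is a repressor that competes with STAT5 for its DNA sites and holds down female-biased genes in male liver. Its brightest probe (NM_009744; mm9 chr16:23965160-23965219) read 10.11 in corn oil females, 9.13 in AAI females, 10.21 in corn oil males and 9.45 in AAI males. Both AAI values lay below both corn oil values, 1.97-fold lower in females and 1.69-fold lower in males (log2 ratios -0.98 and -0.76). The female ratio fell just short of 2-fold and passed it under 5 alternatives (75th percentile scaling, normexp, no trend correction, the authors' normalized values and the mean of its probes), at -1.09 to -1.01. With the mean of the probes the 1 gene at least 2-fold lower in females was Bcl6 and not Socs2. The corn oil-treated sexes differed by 0.10 at this probe, less than the scanner error, although Bcl6 belongs to the male side of the programme. A weaker probe of a further transcript (ENSMUST00000135352) was well above background on the corn oil arrays only, at 4.93 in females and 5.74 in males. Its ratios with AAI, -1.121 in females and -1.035 in males, are therefore bounds, and they enter the mean of the probes.

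Cux2 encodes a factor that is nearly absent from male liver and present in female liver, where it represses male-biased genes and raises female-biased ones. Its brightest probe (NM_007804; mm9 chr5:122310447-122310506) read 8.40 in corn oil females, 8.01 in AAI females, 5.53 in corn oil males and 8.78 in AAI males. Corn oil-treated males were thus 7.30-fold below corn oil females (log2 ratio -2.87), the 28th lowest of 29097 genes above background on both arrays. That ratio was -1.89 with normexp background correction and -2.01 with the mean of the probes. With AAI the male value was 9.52-fold higher (log2 ratio 3.25, scanner error 0.24), the 127th highest of 28400 genes, and lay 0.77 above that of AAI females. In females the ratio was -0.39. The other probes gave the same order of the sexes: they read 7.83 and 7.65 in corn oil females, 7.11 and 7.01 in AAI females, 5.98 and 6.34 in corn oil males, and 8.15 and 8.44 in AAI males. All 3 probes were well above background on all 4 arrays, and their ratios with AAI were 2.11 to 3.25 in males and -0.71 to -0.39 in females. The male ratio was 2.15 with normexp and 2.51 with the mean of the probes. The male ratio minus the female ratio was 3.64, with a scanner error of 0.32. The summed signals of muscle, adrenal and fat markers were also highest in AAI males, and their part in the Cux2 signal was not tested.

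**Figure D4:**
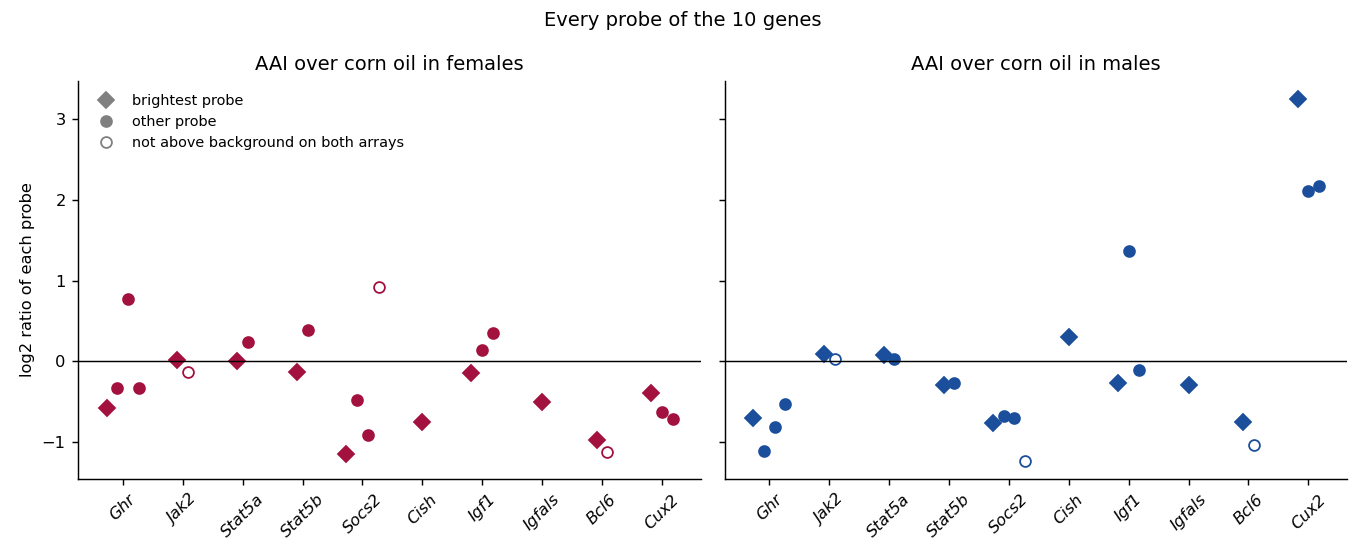
Log2 ratio of AAI over corn oil for each of the 24 probes of the 10 genes, in females and in males; diamonds mark the brightest probe and open symbols a probe not well above background on both arrays. The 3 Cux2 probes lie at 2.11 to 3.25 in males and below 0 in females, and the probes of Ghr and Igf1 spread on both sides of 0 in females.

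Between the sexes under corn oil, Cux2 was the one of the 10 genes that differed 2-fold. In males over females 0 of the 10 were at least 2-fold higher and 1 was at least 2-fold lower, beside 3.81% and 1.84% of 30871 genes. Socs2 and Cish were higher in males by 0.47 and 0.46, and Stat5b and Igfals were lower by 0.26 and 0.24. Under AAI, 1 gene (Cish) was at least 2-fold higher in males and 0 were at least 2-fold lower, beside 3.22% and 1.08% of 31450 genes. There Socs2 was 0.85 and Cux2 0.77 higher in males.

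The male-biased and female-biased genes of mouse liver are the main readout of growth hormone timing, and many of them encode cytochrome P450 enzymes, sulfotransferases and urinary proteins. Of 23 male-biased genes listed, all on the array, 16 were at least 2-fold higher in males than in females under corn oil and 9 under AAI. The 9 are not all among the 16. They include Mup20, Mup3 and Mup1, at 3.83, 1.96 and 3.51 under AAI but 0.43, 0.62 and -0.10 under corn oil. Over all genes the shares at least 2-fold higher in males were 3.81% and 3.22%. With AAI, 16 of the 23 were at least 2-fold lower in males and 0 higher, with a median log2 ratio of -1.97 over the 22 genes above background on both male arrays, beside 0.02 over all genes, of which 4.52% were lower and 3.48% higher. In females 6 were at least 2-fold lower and 1 was higher, with a median of -0.17, beside 3.08% and 1.35% of all genes. Hsd3b5, a steroid dehydrogenase gene, read 14.60 in corn oil males and was not well above background in AAI males, so that its ratio of -9.90 is a bound. Among the genes above background on both male arrays, the values farthest from 0 were those of Slco1a1, a transporter of organic anions, Elovl3, an enzyme that lengthens fatty acids, and the P450 gene Cyp4a12a, whose near-identical neighbour Cyp4a12b can share its signal. Slco1a1 read 8.60 in corn oil females, 6.34 in AAI females, 12.49 in corn oil males and 6.71 in AAI males. Elovl3 read 7.69, 6.89, 13.58 and 7.87, and Cyp4a12a 7.07, 7.89, 13.42 and 8.88. In all 3 genes the AAI males lay far below the corn oil males. They lay above the AAI females by 0.38, 0.98 and 0.99. Against corn oil females, Slco1a1 was lower in AAI males, and Elovl3 and Cyp4a12a were higher. In females the values farthest from 0 belonged to the major urinary protein genes Mup20, Mup1 and Mup3, at -3.89, -3.63 and -3.29, against -0.49, -0.01 and -1.95 in males. These genes are near-identical copies, so their probes cannot be assigned to single genes with certainty.

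Of 27 female-biased genes listed, 26 were on the array, and 21 were at least 2-fold lower in males than in females under corn oil and 11 under AAI. Over all genes the shares at least 2-fold lower in males were 1.84% and 1.08%, and the median ratios of males over females were -0.02 and -0.04. With AAI, 13 were at least 2-fold higher in males and 1 was lower, with a median log2 ratio of 1.95 over 22 genes, beside 3.48% and 4.52% of all genes and an all-gene median of 0.02. In females 1 was higher and 4 were lower, with a median of -0.16, beside 1.35% and 3.08% of all genes and an all-gene median of 0.04. Cyp3a44 has no male ratio, because its spot on the array of AAI males held a substituted background value. Cyp2b9, a P450 gene, read 15.57 in corn oil females, 15.14 in AAI females, 8.87 in corn oil males and 14.15 in AAI males, and Cyp2b10, of the same family and also a target of xenobiotic receptors, read 16.04, 14.80, 9.82 and 14.17. For both genes the treated males lay between the corn oil males and the females, nearer to the females. The sulfotransferase genes Sult2a1 and Sult2a2 were different: Sult2a2 read 16.50, 15.70, 5.39 and 6.36, and their ratios of AAI males to AAI females were -10.76 and -9.34. Over the genes above background on all 4 arrays, the median difference of males over females was 2.50 under corn oil and 0.82 under AAI for 22 male-biased genes, and it was smaller under AAI in 17 of them. For 22 female-biased genes the medians were -1.77 and -0.52, and the difference was smaller under AAI in 18. The share of all genes with a smaller sex difference under AAI was not counted, so the 17 and the 18 have no background beside them. The lists were described by counts and medians and not tested.

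**Figure D5:**
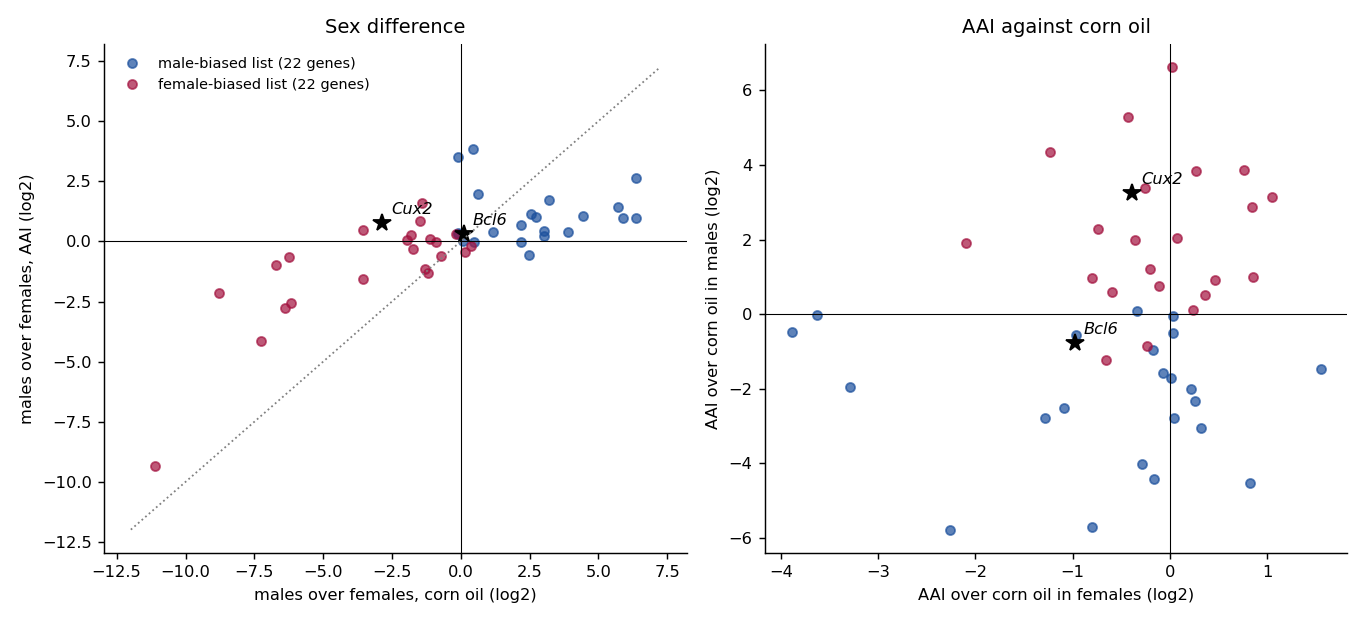
Left, log2 ratio of males over females under AAI against the same ratio under corn oil for the male-biased and female-biased genes above background on all 4 arrays (dotted line, equal values); right, log2 ratio of AAI over corn oil in males against females; stars mark Cux2 and Bcl6. Most listed genes lie nearer to 0 under AAI than under corn oil, a share not counted over all genes. In males the female-biased genes have a median of 1.95 and the male-biased genes of -1.97.

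The other genes of the pathway were counted in the same way. Of 35 other genes of growth hormone and JAK-STAT signalling, all above background on the 4 arrays, 1 was at least 2-fold higher with AAI in females and 0 were lower, and 1 was higher and 2 were lower in males. In females 1.35% of all genes were higher and 3.08% lower, and in males 3.48% were higher and 4.52% lower. The medians were -0.11 in females and 0.01 in males, beside 0.04 and 0.02 over all genes. The higher gene was in each sex Socs3, an inhibitor best known as a target of interleukin-6 and STAT3, which read 9.43, 10.503, 9.62 and 10.81, so that it lay 1.07 and 1.20 above corn oil. The lower ones in males were Pias3, an inhibitor of STAT3 (-1.84), and Stat4 (-1.15). Prlr, the prolactin receptor, which also signals through STAT5, was 1.16 lower in males than in females under corn oil and 0.56 lower under AAI. Of 12 transcription factors that act beside STAT5 in liver, 2 were at least 2-fold lower with AAI in females, namely Onecut1 (-1.31), a factor that maintains hepatocyte genes, and Cebpb (-1.07). With the mean of the probes of a gene, 1 of the 12 was at least 2-fold lower in females. In males Tox was higher (1.33) and Foxa1, which opens chromatin at liver genes, was lower (-1.11). The medians of the 12 were -0.27 and -0.25. Onecut1 was 1.65 higher in males than in females under corn oil and 1.98 under AAI.

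Of 8 genes known to be higher in mouse liver that lacks Ghr or Stat5, none differed 2-fold with AAI in females. In males 3 were at least 2-fold higher and 0 were lower. Over all genes 1.35% were higher and 3.08% lower in females, and 3.48% and 4.52% in males. The median log2 ratio of the 8 genes was -0.04 in each sex, beside 0.04 in females and 0.02 in males over all genes. Vldlr, a lipoprotein receptor, read 9.23, 9.62, 6.91 and 9.90, the lipid droplet gene Cidec 7.82, 8.08, 9.90 and 12.38, and the fatty acid transporter Cd36 11.44, 11.55, 10.14 and 11.52. Vldlr and Cd36 were low in corn oil males only, as Cux2 was, whereas Cidec was highest in AAI males. Fat cells also express Cidec and Cd36, and the summed fat markers were 8193 in corn oil males and 88488 in AAI males. The summed muscle markers were 5554 and 380035 in the same order. The part of fat or muscle in the ratios of Vldlr, Cidec and Cd36 was not tested. The other 5 genes of the list, Igfbp1, Igfbp2, Fgf21, Pparg and Mogat1, differed with AAI by -0.71 to -0.02 in males.

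Genes with the most similar profile over the 4 arrays were sought for Socs2, Igf1, Bcl6 and Cux2 among 28188 other genes above background on all arrays, by the Euclidean distance of log2 values after removing each gene's mean. For Cux2 they were Vldlr at 0.58, Atp6v0d2, a subunit of the vacuolar proton pump, at 0.68, and Rgs16, a regulator of G protein signalling, at 0.77, where a flat profile would lie at 2.54. Atp6v0d2 read 8.08, 8.26, 5.19 and 8.09. For Bcl6 the nearest were Ttc34 at 0.05, Metap1, a methionine aminopeptidase, at 0.06, and Gm13562 at 0.07, all lower with AAI in both sexes. For Socs2 they were Gm35164 at 0.10, Gm10501 at 0.14 and an unnamed transcript at 0.18. For Igf1, whose 4 values span only 0.43, they were Gm11946, Ccs and C78339, all within 0.03. With 4 arrays these distances are a description only.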

How the data were processed

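The deposited scanner files hold spot intensity values of 4 one-colour arrays (SurePrint mouse gene expression, 1 slide). Per the file headers, the authors extracted them with Feature Extraction 10.5.1.1, which subtracted background and corrected a multiplicative trend, and probe coordinates are in mm9. A deposited table of the series holds the same intensity and a normalized intensity, used as an alternative. Here, control and outlier spots were left out, log2 processed intensity was averaged per probe, and the 56495 probes measured on every array were quantile normalized (Python 3.11.15, numpy 2.4.6, pandas 2.3.3). Spots whose processed value was replaced by a background value (26 for corn oil females and 92 for AAI males) were left out, none of them of a gene of the pathway. The probe with the highest mean signal stood for a gene. A gene counted where 1 or both arrays compared had the probe well above background, with the dim side set to the lowest signal above background, and a call was a 2-fold difference. With 1 array of pooled RNA per group no test was made, and precision is limited by having 4 arrays. The normalization and ratios were tested on simulated data. Alternatives were 75th percentile scaling, normexp (offset 50, limma 3.58.1 in R 4.3.3), no trend correction, the authors' normalized values, the mean of the probes, no filter on dim probes, replaced spots kept, and thresholds of 1.5-fold and 3-fold.

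Named are all 10 genes with their probes, Igfbp3, Igf1r, at most 3 genes per list and comparison with the ratio farthest from 0 among genes above background on both arrays, and the 3 nearest profiles. One listed gene that this rule names is not reported here. Hsd3b5 and further genes of short lists were named after their values were seen. The lists were written from general knowledge, and genes and lists were chosen with earlier results of these data known. Lists of stellate cell, endothelial, bile duct and macrophage markers were also summed. Promoter sequences are RefSeq's. The labels give the sexes, doses and pools.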

Additional observations from a re-analysis of the deposited data

Results flagged for a closer look

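Of the 10 genes, Cish and Cux2 had ratios of AAI over corn oil of opposite sign in the sexes, each beyond the median SD between probes of a gene. For Cux2 the ratio was -0.39 in females and 3.25 in males, a difference of 3.64. For Cish it was -0.75 in females and 0.30 in males, a difference of 1.05. Among the 28189 genes above background on all 4 arrays, 10.1% had a difference of at least 1 in size. The difference of Cux2 ranked 39th from the high end and that of Cish 1182nd. The share of all genes with opposite signs was not counted. With 1 array per group neither difference was tested, and sex and dose cannot be told apart.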

How the results depend on the processing

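No paired analysis was possible because each group has 1 array. Of the counts of the 10 genes at least 2-fold higher or lower, those that differed by more than 1.5 times from the values above were these. In females, 2 genes instead of 1 were lower under 75th percentile scaling, normexp background, no multiplicative trend correction and the authors' normalized values, 3 at a 1.5-fold threshold and 0 at 3-fold. With the mean of the probes the count stayed at 1, but the gene was Bcl6 in place of Socs2. In males, 3 instead of 0 were lower at 1.5-fold. In AAI-treated males over females, 2 instead of 1 were higher with the mean of the probes, 3 at 1.5-fold and 0 at 3-fold. No ratio of 2-fold or more changed its sign under any alternative. Of 280 alternative ratios of the 10 genes, 19 moved by more than the SD between probes, among them Cux2 in males (2.15 to 3.35 over all settings). Small ratios of Stat5a, Stat5b, Igf1, Ghr and Igfals changed sign under some settings, 11 times in all. Normalizing only the 2 arrays compared, an alternative chosen after seeing the data, moved no count. Without replicate arrays, differences between animals cannot be told from differences between treatments.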
